A study of Mus musculus with 21 samples.

Results

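Aminoacyl-tRNA synthetases join each amino acid to its tRNA, and a mouse cell makes separate sets of them for the cytosol and for the mitochondrion. The rule that picks the genes described here uses gene names and no measured value, though earlier results of these data were known when it was set. It takes cytosolic and mitochondrial synthetase genes with a named probe, 36 of the 20145 named genes on the array. There are 20 cytosolic genes (Aars, Cars, Dars, Eprs, Farsa, Farsb, Gars, Hars, Iars, Kars, Lars, Mars1, Nars, Qars, Rars, Sars, Tars, Vars, Wars and Yars) and 16 mitochondrial genes, whose symbols end in 2 (Aars2, Cars2, Ears2, Fars2, Hars2, Iars2, Lars2, Mars2, Nars2, Pars2, Rars2, Sars2, Tars2, Vars2, Wars2 and Yars2). Gars and Kars each encode the enzyme of both compartments and were counted as cytosolic. All 20 cytosolic genes and 15 of the 16 mitochondrial genes were bright enough to be tested in both experiments. Nars2, the mitochondrial asparaginyl enzyme, was not, and no change is given for it.

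The cells were MIN6m9, a line of insulin-making mouse beta cells derived from an insulinoma. In the fatty acid experiment, wild-type (WT) cells received 400 uM palmitate for 48 h, 400 uM oleate for 48 h, or neither, on 3 arrays a group. In the PERK experiment, MIN6m9 cells with an Fv2E-PERK transgene were given 1 nM AP20187 for 6, 12, 24 or 48 h or were mock-treated with its vehicle, ethanol, and WT cells were likewise mock-treated, on 2 arrays a group. Fv2E-PERK is the kinase domain of PERK fused to a domain that dimerises when the small molecule AP20187 is added, so that the kinase is switched on without stress in the endoplasmic reticulum. The sources used here give neither the transgene's promoter, nor whether the Fv2E-PERK cells are 1 clone, nor when untreated and mock cells were harvested. WT cells with AP20187 are not analysed here, so that an action of AP20187 apart from the kinase was not tested. The labels do not say whether the replicates are separate cultures, so a p-value here speaks to how far these arrays scatter, and that scatter may be technical.

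Cytosolic synthetases serve the whole of cytoplasmic translation, and several of them sit together in a large multisynthetase complex held by scaffold proteins. Mitochondrial synthetases are also encoded in the nucleus and charge the tRNAs of the mitochondrial genome. In the integrated stress response (ISR), kinases such as PERK phosphorylate the initiation factor eIF2alpha. General initiation then drops while translation of the transcription factor ATF4 rises, and ATF4 is known to raise genes of amino acid synthesis, amino acid transport and cytosolic tRNA charging. Palmitate is a saturated fatty acid known to stress the endoplasmic reticulum of beta cells, and oleate is a monounsaturated one.

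Signals are given as log2 of the processed spot signal minus the log2 of the array's 75th percentile, so that 0 is the brightness at that percentile. Levels of different genes cannot be set against each other on this scale, since each probe has its own brightness. Changes are differences of group means on the same scale, with standard errors (SE) from limma. A gene is said to have risen, fallen or changed only where limma's p was under 0.05 after Benjamini-Hochberg adjustment across the tested entries. An entry is a named gene or a probe without a name, and 21279 entries could be tested with the fatty acids and 23386 with PERK. These are bulk samples, in which fewer cells of a type and less RNA per cell cannot be told apart.

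Of 8 defining beta cell genes, 6 to 8 were well above background on each array, but not at the same level in all groups. Their median lay between 4.85 and 7.01 on all arrays. Untreated replicate 2, with 6 of the 8 well above background, was the array at 4.85. Of these 8 genes, 4 fell with palmitate, and 8, 7, 8 and 5 fell at 6, 12, 24 and 48 h of AP20187. Over all entries 12.6% fell with palmitate, and 40, 40.5, 40.4 and 34.6% fell at those times of AP20187. The summed level of 6 exocrine genes was 19.2 to 23.9 times the 75th percentile signal in Fv2E-PERK mock cells, against 3.91 to 6.92 times in WT mock cells, and that of 4 other endocrine genes 64.9 to 66.4 against 25 to 26.5 times. Some arrays stood apart in muscle genes. The summed level of 9 heart genes was 1.33 to 1.91 times the 75th percentile signal with palmitate, against 10.6 to 12.5 times with oleate and 9.26 to 12 times in untreated cells. The summed level of 10 skeletal muscle genes was 24.4 in palmitate replicates 1 and 2 and 1.29 in replicate 3, against 1.74 to 1.87 in untreated cells. The part of these marker genes in the synthetase results was not tested, but the cytosolic median without palmitate replicates 1 and 2 is given below. All fatty acid arrays lay on slide 1 except palmitate replicate 3. In the PERK experiment, slide 1 held 48 h of AP20187 and WT mock, and slide 2 held Fv2E-PERK mock and the 6, 12 and 24 h groups. For 48 h against mock or against 6 h, and for Fv2E-PERK mock against WT mock, slide and group cannot be told apart. The number of arrays limits the precision throughout.

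ATF4 binds composite CCAAT-enhancer-binding protein and ATF response elements, and a short core of this element, TGATGNAAN, was searched on both strands of the promoters in RefSeq's mouse assembly GRCm38.p6, from 250 bases before to 50 bases after each gene's start. The motif was present in 5 of the 13 cytosolic genes with a promoter entry (38.5%), in 0 of the 15 promoters of 14 mitochondrial genes, and in 1299 of all 32851 promoters (3.95%). Among other ISR genes it was present in 6 of 13 promoters (46.2%). The cytosolic genes with the motif were Aars, which has it at 2 places, and Gars, Iars, Tars and Yars. A match is a description of the letters and not a binding site, and for Cars, Hars, Lars, Nars, Rars, Vars, Wars, Hars2 and Pars2 no promoter was searched. The stretches below run from 120 bases before the start to the end of the first 30 transcribed bases and are shown for the motif-bearing genes that rose with both palmitate and AP20187. They are printed 5′ to 3′ on the gene's own strand, with the motif, in either orientation, in capitals. They cover chr4:129189783-129189932 (Yars, plus strand), chr8:111033722-111033871 (Aars, plus strand), chr13:49682010-49682159 (Iars, plus strand) and chr15:11399629-11399778 (Tars, minus strand).
Yars: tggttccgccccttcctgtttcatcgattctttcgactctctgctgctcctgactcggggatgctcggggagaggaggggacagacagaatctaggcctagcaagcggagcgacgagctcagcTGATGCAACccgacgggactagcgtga
Aars: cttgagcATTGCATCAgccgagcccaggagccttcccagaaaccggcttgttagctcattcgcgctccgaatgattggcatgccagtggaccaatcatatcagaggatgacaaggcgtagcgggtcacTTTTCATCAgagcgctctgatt
Iars: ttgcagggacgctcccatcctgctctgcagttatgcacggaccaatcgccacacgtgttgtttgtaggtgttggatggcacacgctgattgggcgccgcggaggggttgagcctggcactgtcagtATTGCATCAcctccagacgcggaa
Tars: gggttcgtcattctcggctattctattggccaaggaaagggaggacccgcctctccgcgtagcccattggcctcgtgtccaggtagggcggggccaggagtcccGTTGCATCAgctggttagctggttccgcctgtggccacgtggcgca

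Palmitate raised more of the cytosolic synthetases than of the mitochondrial ones. Against untreated cells, 13 of 20 cytosolic genes rose and 1 fell, and 2 of 15 mitochondrial genes rose and 1 fell. Over all entries tested, 7.41% rose and 12.6% fell. The median log2 change was 0.34 over the cytosolic genes, 0.05 over the mitochondrial genes and -0.05 over all entries. The cytosolic changes ranged from -0.26 to 0.66, so the largest was 1.57-fold. On a scale set by 7 spiked-in control probes, 9 cytosolic and 0 mitochondrial genes rose and none fell. On that scale 1045 of all 21279 entries were called, 85.8% of them as rises. The medians there were 0.51 over cytosolic genes, 0.22 over mitochondrial genes and 0.12 over all entries.

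Nars, the asparaginyl enzyme, had the largest palmitate change. It stood at 3.72, 3.74 and 3.74 with palmitate, against 3.11, 3.08 and 3.05 with oleate and 3.24, 3.01 and 2.99 in untreated cells. All 3 palmitate arrays lay above all 6 others, and the change against untreated cells was 0.66 ± 0.07 (SE, n = 3 each), 1.57-fold, with limma's adjusted p at 0.000825. Lars, the leucyl enzyme, stood at 4.56, 4.60 and 4.59 with palmitate, against 4.002, 4.002 and 3.92 with oleate and 3.75, 4.11 and 4.01 in untreated cells. The palmitate arrays again lay above the other 6, and the change was 0.63 ± 0.09 (1.55-fold, adjusted p = 0.003 by limma). Yars, the tyrosyl enzyme, stood at -1.18, -1.21 and -1.02 with palmitate, against -1.43, -1.33 and -1.495 with oleate and -2.05, -1.65 and -1.55 in untreated cells. Its untreated arrays spread more widely than those of Nars and Lars, and its change was 0.61 ± 0.13 (1.53-fold, limma's adjusted p = 0.0143).

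Tars, the threonyl enzyme, stood at 4.53, 4.57 and 4.70 with palmitate, against 4.12, 4.09 and 3.97 with oleate and 3.90, 4.09 and 4.05 in untreated cells, a change of 1.5-fold. Iars, the isoleucyl enzyme, stood at 4.42, 4.49 and 4.39 with palmitate, against 4.003, 3.93 and 3.86 with oleate and 4.05, 3.88 and 3.89 in untreated cells. In both genes the palmitate arrays did not overlap the other groups. Mars1, the methionyl enzyme, stood at 3.02, 2.94 and 3.09 with palmitate, against 2.53, 2.44 and 2.51 with oleate and 2.59, 2.53 and 2.53 in untreated cells. Eprs, which charges both glutamate and proline, stood at 2.34, 2.42 and 2.50 with palmitate, against 2.11, 2.09 and 1.94 with oleate and 1.84, 1.99 and 2.02 in untreated cells. Both genes encode subunits of the multisynthetase complex, and in both the palmitate arrays were the 3 highest of the 9. Aars, the alanyl enzyme, stood at 5.16, 5.30 and 5.25 with palmitate, against 4.79, 4.75 and 4.78 with oleate and 4.79, 4.85 and 4.68 in untreated cells. The changes of Iars, Mars1, Eprs and Aars against untreated cells were close to each other, 0.46 to 0.49.

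The other cytosolic genes that rose with palmitate were Cars (cysteine, 0.38 ± 0.05), Farsb (the beta subunit of the phenylalanyl enzyme, 0.35 ± 0.06), Rars (arginine, 0.33 ± 0.08), Vars (valine, 0.28 ± 0.05) and Sars (serine, 0.27 ± 0.06). Farsa, the alpha subunit of the same phenylalanyl enzyme, fell: it stood at 2.80, 2.86 and 2.94 with palmitate, against 2.89, 2.83 and 2.86 with oleate and 3.09, 3.04 and 3.05 in untreated cells. Its change was -0.19 ± 0.05 (adjusted p = 0.0343 by limma) and -0.02 on the spike-in scale, and its palmitate and oleate arrays overlapped. The 6 cytosolic genes that did not pass were Gars (0.24 ± 0.08, adjusted p = 0.0775), Dars (-0.26 ± 0.10, adjusted p = 0.0969), Hars (0.11 ± 0.08), Qars (-0.07 ± 0.07), Kars (-0.05 ± 0.05) and Wars (0.04 ± 0.08). Wars, the tryptophanyl enzyme, had the smallest change, at 5.71, 5.85 and 5.87 with palmitate, against 5.60, 5.57 and 5.41 with oleate and 5.80, 5.86 and 5.66 in untreated cells, where palmitate and untreated arrays overlapped.

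Among mitochondrial genes, Cars2, the cysteinyl enzyme, stood at 1.096, 0.99 and 1.06 with palmitate, against 0.72, 0.75 and 0.78 with oleate and 0.94, 0.66 and 0.71 in untreated cells (0.28 ± 0.08, limma's adjusted p = 0.0413). Yars2, the tyrosyl enzyme, stood at 2.05, 2.02 and 2.003 with palmitate, against 1.78, 1.73 and 1.80 with oleate and 1.75, 1.75 and 1.85 in untreated cells (0.24 ± 0.05, adjusted p = 0.0114 by limma). In both genes the 3 palmitate arrays lay above the other 6. Neither rise passed on the spike-in scale, though both changes were larger there (0.44 for Cars2 and 0.41 for Yars2). Fars2, the mitochondrial phenylalanyl enzyme, fell and stood at 3.25, 3.32 and 3.27 with palmitate, against 3.35, 3.39 and 3.25 with oleate and 3.46, 3.53 and 3.43 in untreated cells (-0.20 ± 0.05, adjusted p = 0.039 by limma). Its palmitate arrays lay below all untreated arrays but overlapped those with oleate, and on the spike-in scale the change was -0.03 and did not pass. Of the other 12 mitochondrial genes tested, none passed, and their changes ran from -0.19 for Pars2 (adjusted p = 0.0746 by limma) to 0.27 for Mars2.

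**Figure D1:**
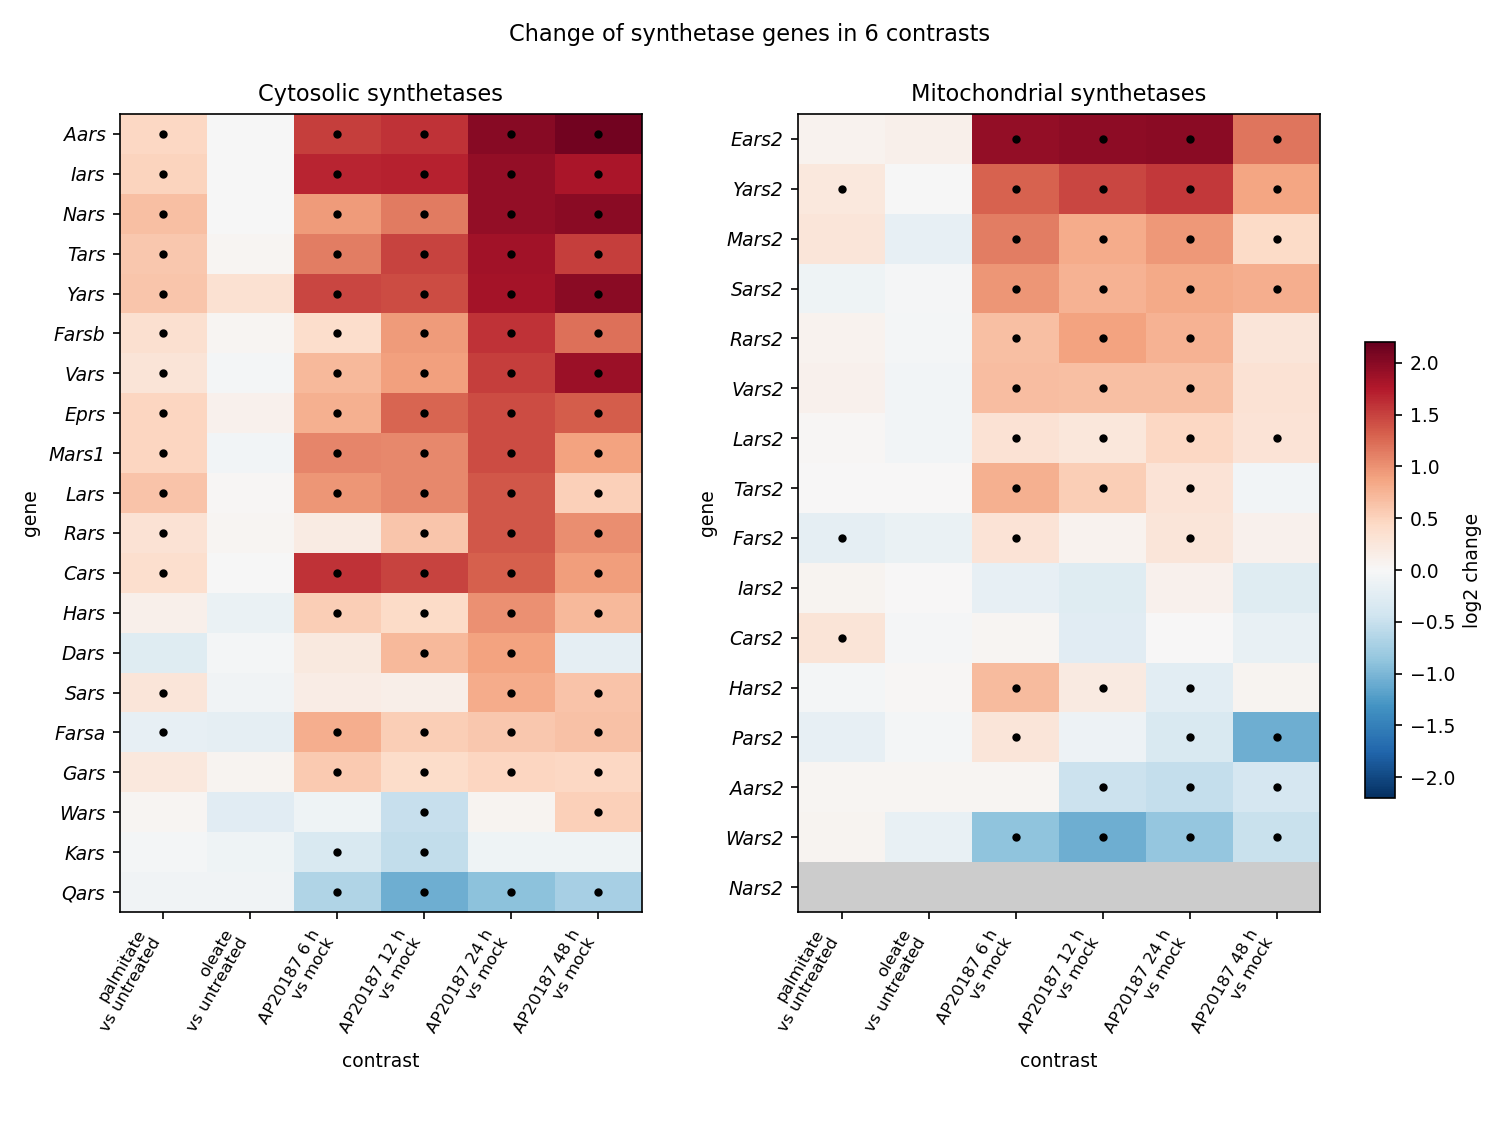
Log2 changes of the 20 cytosolic and 16 mitochondrial synthetase genes in 6 comparisons, on a colour scale; a dot marks a limma adjusted p under 0.05, and Nars2, which was not tested, is grey. With palmitate against untreated cells 13 cytosolic genes rose and 1 fell, with oleate no gene passed, and at 48 h of AP20187 against mock 17 cytosolic genes rose and 1 fell.

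Several of these calls depended on few arrays. In refits that each left out 1 of the 9 arrays, 11 of the 13 cytosolic rises kept their call every time. The rise of Rars lost its call without palmitate replicate 1 or 3 or any of untreated replicates 1 to 3 (adjusted p up to 0.0741 by limma), and that of Sars without palmitate replicate 1, 2 or 3 (up to 0.071). The falls of Farsa (up to 0.103) and Fars2 (up to 0.111) and the rise of Cars2 (up to 0.119) lost their calls in 8 of 9 refits each. They kept them only without palmitate replicate 3 for Farsa, without oleate replicate 3 for Fars2 and without untreated replicate 1 for Cars2. Without palmitate replicates 1 and 2 together, the arrays with high skeletal muscle genes, the cytosolic median was 0.35. The median over all entries in that refit is not given here. The refit leaves 1 palmitate array, replicate 3, whose spread is borrowed from the oleate and untreated arrays. It is alone on slide 2, so that palmitate and slide cannot be told apart in that refit. On the series matrix values that the authors deposited, limma called 0 of the 35 genes, and 0 had an unadjusted p under 0.05, with medians of 0.11 for cytosolic genes and -0.27 for all entries.

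Oleate at the same dose and time changed no synthetase gene. By limma 0 of 20 cytosolic and 0 of 15 mitochondrial genes passed against untreated cells, where 0.837% of all entries passed in either direction. At an unadjusted p under 0.05, 3 cytosolic genes (Farsa, Wars and Yars) and 2 mitochondrial genes (Fars2 and Wars2) were counted. At the same threshold 3460 of all 21279 entries were counted. The median change was -0.02 over cytosolic genes and -0.05 over all entries. Yars had the highest change with oleate, 0.33, and Wars the lowest, -0.25.

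Palmitate and oleate, at a matched dose of 400 uM and a matched 48 h, differ in that oleate has an unsaturated chain and palmitate a saturated, shorter one. Set against oleate, palmitate gave higher levels of 11 cytosolic and 2 mitochondrial genes and lower levels of none, where 7.48% of all entries were higher and 6.27% lower. The cytosolic genes that passed were Nars (0.66), Lars (0.61), Tars (0.54), Mars1 (0.53), Iars (0.50), Aars (0.46), Cars (0.39), Eprs (0.38), Sars (0.35), Farsb (0.32) and Vars (0.31). Cars2 (0.30) and Yars2 (0.26) were the mitochondrial ones. Yars, at 0.28 (adjusted p = 0.185), and Rars, at 0.28 (adjusted p = 0.0577), rose against untreated cells and did not pass against oleate, with 95% intervals of -0.01 to 0.58 and 0.09 to 0.47. For Kars (-0.07 to 0.16), Qars (-0.15 to 0.17) and Farsa (-0.11 to 0.13) the intervals of the difference lay around 0 on both sides. The call of Cars2 was lost in 7 of 9 refits without 1 array, all but those without untreated replicate 1 or 2. That of Farsb was lost without oleate replicate 1 or palmitate replicate 1 or 2, that of Sars without oleate replicate 1 or 2, that of Eprs without oleate replicate 3 and that of Yars2 without oleate replicate 2 (adjusted p between 0.0504 and 0.13 by limma in these refits at their highest). Both comparisons use the same 3 palmitate arrays, so they are not independent of each other.

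By 6 h AP20187 had raised most synthetases of both compartments, and later the cytosolic genes held their rise while fewer mitochondrial genes passed. At 6 h against Fv2E-PERK mock, 14 of 20 cytosolic genes rose and 2 fell, and 11 of 15 mitochondrial genes rose and 1 fell, where 24.9% of all entries rose and 40% fell. At 12 h, 16 cytosolic genes rose and 3 fell and 9 mitochondrial genes rose and 2 fell (27.1% and 40.5% of all entries). At 24 h, 17 cytosolic genes rose and 1 fell and 9 mitochondrial genes rose and 4 fell (27% and 40.4%). At 48 h, 17 cytosolic genes rose and 1 fell and 5 mitochondrial genes rose and 3 fell (27.2% and 34.6%). These 4 comparisons share the same mock arrays. The median change of the cytosolic genes was 0.75, 0.92, 1.37 and 0.90 at 6, 12, 24 and 48 h, that of the mitochondrial genes 0.66, 0.24, 0.29 and 0.10, and that of all entries -0.23, -0.19, -0.20 and -0.07. In all, 14 cytosolic and 5 mitochondrial genes rose at all 4 times. The share of all entries that did so was not counted, so these counts are a description only. Mars2 is included in the mitochondrial medians and in the mitochondrial rises at each time. It was not well above background on any mock array and was tested only through the groups where it was brighter.

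The scaling sets where 0 lies. With arrays scaled on the spiked-in probes in place of the 75th percentile, the median of all entries became 0.43, 0.56, 0.74 and 0.48 at 6, 12, 24 and 48 h. On that scale 17, 17, 19 and 17 cytosolic and 13, 11, 13 and 8 mitochondrial genes rose, and none of either compartment fell. On it 9757, 11829, 13684 and 10683 of all 23386 entries were called at those times, so rises were common over the whole array. Of all calls, 89.1, 88.8, 93.8 and 87.2% were then rises, against 38.4, 40.1, 40.1 and 44% on the 75th percentile scale. The falls below are therefore falls relative to the array's 75th percentile. The spike-in scale is imprecise, since its shift differed between replicates. On replicates 1 and 2 it was 0.08 and 0.10 in mock cells, 0.14 and -0.08 at 6 h and -0.165 and -0.51 at 12 h. At 24 h it was -0.67 and -0.50, and at 48 h 0.70 and 0.13. The shift enters every gene, so a change that did not pass on that scale need not be smaller there.

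Aars rose most by 48 h. It stood at 4.35 and 4.31 in mock cells, 5.87 and 5.85 after 6 h, 5.97 and 5.86 after 12 h, 6.25 and 6.40 after 24 h and 6.44 and 6.45 after 48 h, and at 4.05 and 4.24 in WT mock cells. All 8 AP20187 arrays lay above all 4 mock arrays, and the 48 h change was 2.12 ± 0.09 (SE, n = 2 each), 4.33-fold, with limma's adjusted p at 1.31e-06. Nars stood at 3.20 and 2.87 in mock cells, 3.98 and 3.95 after 6 h, 4.24 and 4.12 after 12 h, 5.10 and 4.83 after 24 h and 5.11 and 4.93 after 48 h (1.99 ± 0.15 at 48 h, 3.96-fold). The arrays of successive times up to 24 h did not overlap, and those of 24 and 48 h did.

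Iars had made most of its change by the first time. It stood at 3.30 and 3.27 in mock cells, 4.95 and 4.97 after 6 h, 5.07 and 4.87 after 12 h, 5.34 and 5.11 after 24 h and 5.005 and 5.16 after 48 h, where the arrays of 6 and 12 h overlapped and neither 24 h nor 48 h passed against 6 h (0.27 and 0.12). Yars showed a like course, with -1.64 and -1.58 in mock cells, -0.09 and -0.19 after 6 h, -0.15 and -0.19 after 12 h, 0.32 and 0.12 after 24 h and 0.36 and 0.39 after 48 h. Its WT mock arrays lay far apart, at -1.81 and -0.76, and the SE of its changes (0.27) was the highest of the 35 genes tested. Vars, the valyl enzyme, whose palmitate change had been small, stood at 1.52 and 1.51 in mock cells, 2.29 and 2.18 after 6 h, 2.53 and 2.32 after 12 h, 2.95 and 3.14 after 24 h and 3.42 and 3.39 after 48 h. Each later time lay above the earlier ones on both arrays, and the 48 h change was 3.71-fold.

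Tars stood at 3.98 and 3.86 in mock cells, 5.07 and 5.02 after 6 h, 5.37 and 5.47 after 12 h, 5.80 and 5.73 after 24 h and 5.42 and 5.46 after 48 h. Eprs stood at 2.10 and 1.79 in mock cells, 2.82 and 2.65 after 6 h, 3.17 and 3.28 after 12 h, 3.46 and 3.31 after 24 h and 3.28 and 3.26 after 48 h. In both genes the highest arrays were those of 24 h. Mars1 stood at 2.75 and 2.55 in mock cells, 3.81 and 3.64 after 6 h, 3.77 and 3.63 after 12 h, 4.04 and 4.12 after 24 h and 3.55 and 3.53 after 48 h. Lars stood at 4.06 and 3.82 in mock cells, 4.94 and 4.89 after 6 h, 4.90 and 5.10 after 12 h, 5.36 and 5.26 after 24 h and 4.45 and 4.47 after 48 h. The 48 h arrays of Mars1 and Lars lay below those of 24 h and above mock. The 48 h rise of Lars (0.52 ± 0.15, limma's adjusted p = 0.0154) lost its call without 48 h replicate 1 or 2 or mock replicate 2.

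The other cytosolic genes that rose at all 4 times were Cars, Farsb, Farsa, Hars and Gars. Cars was highest at 6 h (1.59 ± 0.12, 3.02-fold) and stood 1.88-fold above mock at 48 h. Farsb changed by 0.38, 0.93, 1.59 and 1.22 at 6, 12, 24 and 48 h, and Farsa, the other subunit of its enzyme, by 0.81, 0.54, 0.59 and 0.65, so that both subunits were above mock here. Farsb lost its 6 h call without mock replicate 2. Rars rose at 12, 24 and 48 h (0.61, 1.36 and 1.03), and its 6 h value of 0.19 did not pass. Sars rose at 24 and 48 h (0.82 and 0.62). Dars, the aspartyl enzyme, rose at 12 and 24 h (0.71 and 0.89) and stood at -0.19 ± 0.21 at 48 h, which did not pass. Its 12 h arrays, at 0.65 and 1.09, and its 24 h arrays, at 0.73 and 1.38, spread more than those of most genes, and its 12 h call was lost without 12 h replicate 2 or mock replicate 1.

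Qars, Kars and Wars were the cytosolic genes with a fall. Qars, the glutaminyl enzyme of the multisynthetase complex, stood at 3.78 and 3.71 in mock cells, 3.12 and 3.04 after 6 h, 2.68 and 2.67 after 12 h, 2.79 and 2.89 after 24 h and 3.05 and 2.99 after 48 h, and at 4.19 and 4.20 in WT mock cells. It was the cytosolic gene that was lower than mock at all 4 times, 1.65-fold lower at 48 h with limma's adjusted p at 5.43e-05. On the spike-in scale its values were -0.01, -0.32, 0.04 and -0.18, none of which passed, and the sign at 24 h was reversed. Kars, the lysyl enzyme, stood at 4.33 and 4.23 in mock cells, 3.90 and 3.98 after 6 h, 3.75 and 3.71 after 12 h, 4.21 and 4.15 after 24 h and 4.18 and 4.19 after 48 h. Its falls at 6 and 12 h turned to 0.31 and 0.20 on the spike-in scale, and its 48 h change, the smallest of a cytosolic gene, was -0.09 ± 0.07. Wars stood at 5.08 and 5.07 in mock cells, 5.09 and 4.88 after 6 h, 4.57 and 4.55 after 12 h, 5.10 and 5.15 after 24 h and 5.61 and 5.59 after 48 h. Its fall at 12 h (-0.51) turned to 0.24 on the spike-in scale and did not pass with its other probe (-0.04), and its rise at 48 h was 1.44-fold.

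**Figure D2:**
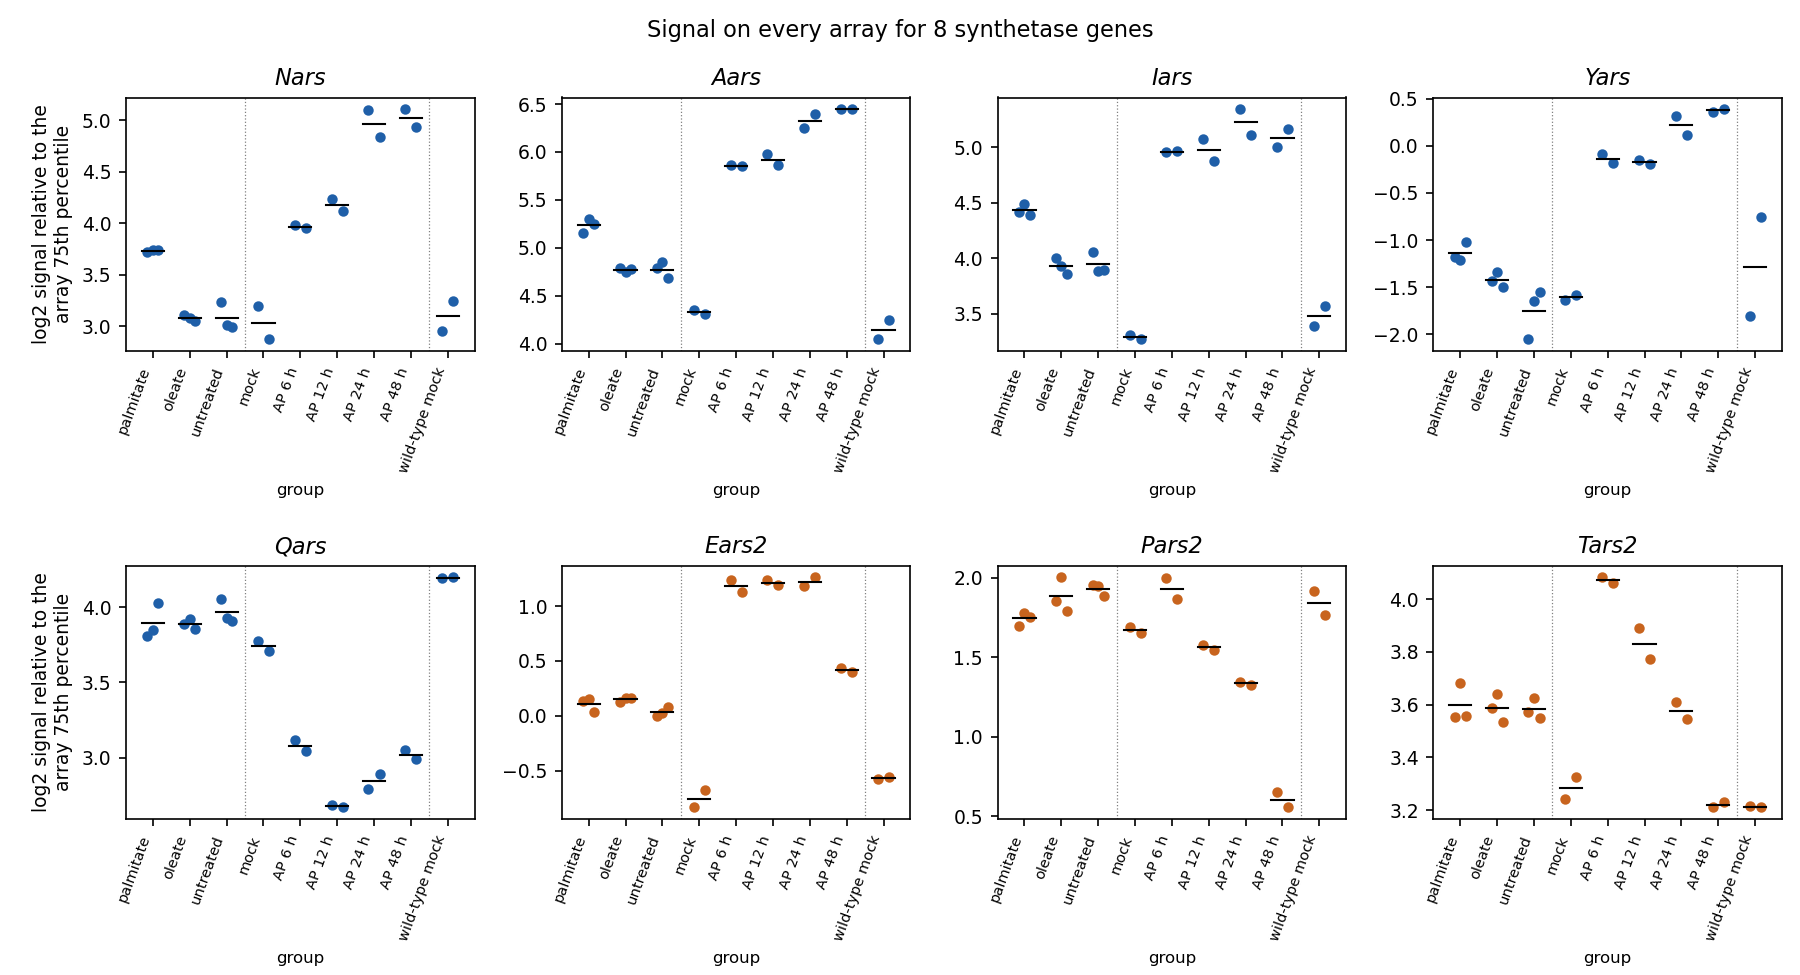
Log2 signal relative to the array's 75th percentile of Nars, Aars, Iars, Yars, Qars, Ears2, Pars2 and Tars2 on each array (points) with group means (bars), by group. In Aars all palmitate arrays, at 5.16 to 5.30, lay above the untreated ones, and in Qars the AP20187 arrays lay below the mock ones at every time.

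Among mitochondrial genes, Ears2, the glutamyl enzyme, rose most. It stood at -0.84 and -0.67 in mock cells, 1.24 and 1.12 after 6 h, 1.23 and 1.19 after 12 h, 1.18 and 1.26 after 24 h and 0.44 and 0.40 after 48 h, and at -0.58 and -0.56 in WT mock cells. It was 3.82-fold above mock at 6 h, the largest change of any synthetase at that time, and 2.26-fold at 48 h. Its palmitate arrays, at 0.14, 0.15 and 0.03, overlapped the oleate ones, at 0.12, 0.16 and 0.16, and the untreated ones, at -0.004, 0.03 and 0.08. Yars2 stood at 1.82 and 1.65 in mock cells, 3.04 and 3.02 after 6 h, 3.19 and 3.20 after 12 h, 3.27 and 3.30 after 24 h and 2.57 and 2.65 after 48 h. It was thus the mitochondrial gene that rose with palmitate and at all 4 times of AP20187. Sars2, the seryl enzyme, stood at -0.45 and -0.37 in mock cells, 0.52 and 0.59 after 6 h, 0.43 and 0.28 after 12 h, 0.24 and 0.60 after 24 h and 0.45 and 0.34 after 48 h. All 8 of its AP20187 arrays lay above the 4 mock arrays.

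Lars2 was above mock by 0.33, 0.24, 0.46 and 0.30 at the 4 times. Its call was lost at 6 h without 6 h replicate 1 or mock replicate 2 and at 48 h without 48 h replicate 2 or mock replicate 2, and at 12 h without 12 h replicate 1 or mock replicate 2. Rars2 and Vars2 rose at 6, 12 and 24 h, by 0.66 to 0.88 and by 0.66 to 0.68, and at 48 h stood at 0.26 (adjusted p = 0.0529) and 0.32 (adjusted p = 0.0598). Mars2, the mitochondrial methionyl enzyme, was not well above background on any mock array, so only bounds can be given. It was at least 2.19-fold higher at 6 h, at least 1.75-fold at 12 h, at least 1.93-fold at 24 h and at least 1.34-fold at 48 h than in mock cells. Each bound sets the treated mean against, per mock array, the larger of 2 signals, that of the dimmest detected probe and that of Mars2 itself. The 48 h call of Mars2 was lost without 48 h replicate 2 or either mock array.

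Tars2 and Hars2 rose at 6 h and were lower later. Tars2, the threonyl enzyme, stood at 3.24 and 3.33 in mock cells, 4.08 and 4.06 after 6 h, 3.89 and 3.77 after 12 h, 3.61 and 3.55 after 24 h and 3.21 and 3.23 after 48 h. With this brighter probe each later time of AP20187 lay below the earlier ones on both arrays, and at 48 h the change was -0.06 ± 0.07. The other Tars2 probe rose at all 4 times, by 0.77, 0.51, 0.40 and 0.51, without a steady decline. Hars2, the histidyl enzyme, stood at 0.70, 0.21, -0.23 and 0.05 from mock at the 4 times, of which the last did not pass. Its rise at 12 h was lost without 12 h replicate 1 or 2 or mock replicate 2, and its fall at 24 h turned to 0.71 on the spike-in scale and was lost without 24 h replicate 2 or mock replicate 1. Fars2 rose at 6 and 24 h, by 0.31 and 0.27.

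Pars2, Wars2 and Aars2 were below mock at 48 h. Pars2, the prolyl enzyme, stood at 1.69 and 1.65 in mock cells, 1.998 and 1.87 after 6 h, 1.58 and 1.55 after 12 h, 1.35 and 1.33 after 24 h and 0.65 and 0.56 after 48 h. It was 2.1-fold lower than mock at 48 h (adjusted p = 1.63e-05 by limma), and on the spike-in scale the 48 h value was -0.52 and did not pass, while the fall at 24 h turned to 0.60. Its rise at 6 h (0.26) was lost without 6 h replicate 1 or either mock array. Wars2, the tryptophanyl enzyme, stood at -0.94 and -0.94 in mock cells, -1.87 and -1.77 after 6 h, -1.98 and -2.04 after 12 h, -1.78 and -1.79 after 24 h and -1.37 and -1.48 after 48 h. It was below mock at all 4 times, and on the spike-in scale the values at 24 and 48 h turned to 0.09 and 0.06. Its other probe stood at 0.04 and -0.11 at 6 and 12 h, neither of which passed, and fell at 24 and 48 h (-0.42 and -0.71). Aars2, the alanyl enzyme, stood at 0.57 and 0.51 in mock cells, 0.56 and 0.60 after 6 h, 0.12 and 0.03 after 12 h, -0.04 and 0.08 after 24 h and 0.26 and 0.09 after 48 h, and its falls at 12, 24 and 48 h turned to 0.28, 0.42 and 0.18 on the spike-in scale. Cars2 and Iars2 passed at none of the 4 times with their brighter probes.

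**Figure D3:**
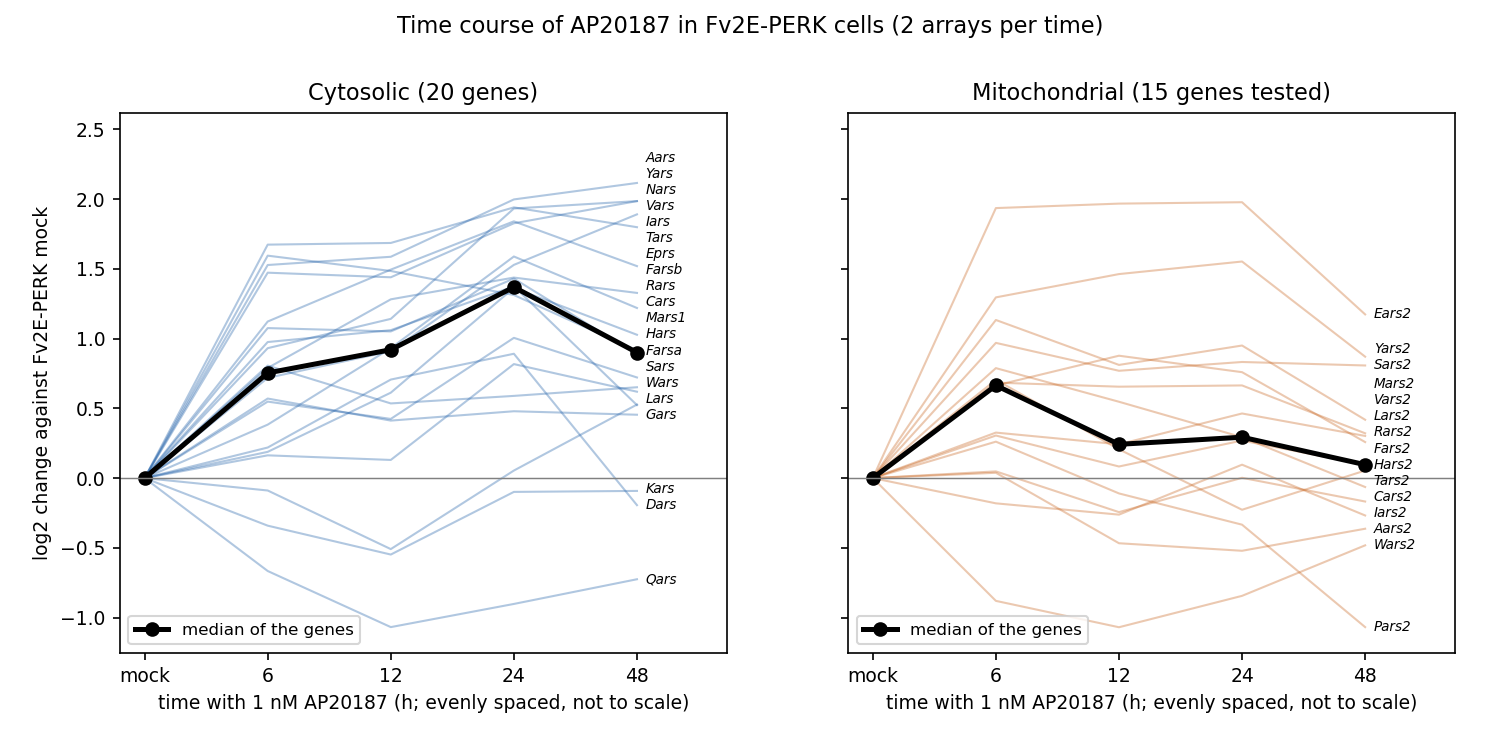
Log2 change against Fv2E-PERK mock (n = 2 arrays per time) of each cytosolic gene and each tested mitochondrial gene at 6, 12, 24 and 48 h of AP20187, as thin lines, with the median of each compartment as a thick line. The cytosolic median was 0.75, 0.92, 1.37 and 0.90 and the mitochondrial median 0.66, 0.24, 0.29 and 0.10. Mars2, which was not well above background on the mock arrays, is included.

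Between early and late times, most cytosolic genes that changed were higher late and most mitochondrial ones lower. At 48 h against 6 h, 10 cytosolic genes were higher and 2 lower, and 1 mitochondrial gene was higher and 10 lower, where 33.2% of all entries were higher and 27.6% lower. The median change was 0.32 over cytosolic genes, -0.40 over mitochondrial genes and 0.10 over all entries. The largest cytosolic rises were those of Vars (1.17 ± 0.10), Nars (1.05 ± 0.15), Rars (0.84 ± 0.13) and Farsb (0.84 ± 0.10). The falls were those of Cars (-0.68 ± 0.12) and Lars (-0.45 ± 0.15). In the mitochondrial set, Pars2 (-1.33 ± 0.08), Tars2 (-0.85 ± 0.07), Ears2 (-0.76 ± 0.08), Mars2 (-0.72 ± 0.15) and Hars2 (-0.65 ± 0.06) fell most. Wars2 (0.40 ± 0.09) was the mitochondrial gene that rose. The other probes of Tars2 and Wars2 both fell, by -0.26 and -0.75. On the spike-in scale 4 cytosolic genes rose and 1 fell, and 5 mitochondrial genes fell and 0 rose. Of all 23386 entries 8082 were called there, 49.6% of them as rises. Refits without 1 of the 12 arrays kept 8 of the 10 cytosolic rises, 1 of the 2 cytosolic falls and 8 of the 10 mitochondrial falls throughout. The rise of Tars was lost without 48 h replicate 2 or 6 h replicate 2, the rise of Kars and the fall of Fars2 without either 48 h array or 6 h replicate 1, and the fall of Lars without any of the 4 arrays. The fall of Vars2 was lost in the same 4 refits and without either WT mock array (adjusted p up to 0.173 by limma).

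Since 48 h and 6 h lay on different slides, 24 h was set against 6 h, both on slide 2, a comparison added after seeing the data. There 12 cytosolic genes were higher and 1 lower, and 1 mitochondrial gene was higher and 4 lower (20.8% and 18.5% of all entries). The medians were 0.43 over cytosolic genes, -0.04 over mitochondrial genes and 0.01 over all entries. Farsb (1.21), Rars (1.18), Nars (1.00) and Vars (0.81) again had the largest cytosolic rises, and Hars2 (-0.93), Pars2 (-0.60), Aars2 (-0.56) and Tars2 (-0.49) were the mitochondrial genes that fell. On the spike-in scale 10 cytosolic genes rose and none fell, and 0 mitochondrial genes passed in either direction. Of all 23386 entries 4083 were called there, 87.4% of them as rises. The 4 mitochondrial falls were then -0.64 for Hars2, -0.31 for Pars2, -0.27 for Aars2 and -0.21 for Tars2, and the mitochondrial median was 0.25, against 0.30 over all entries. In refits without 1 array, on the 75th percentile scale, these 8 kept their calls, and Dars, Kars, Mars1, Qars and Yars2 lost theirs without one or more of the 6 and 24 h arrays (adjusted p up to 0.167 by limma). Qars, the cytosolic gene that fell (-0.24), stood at 0.05 on the spike-in scale. Ears2 differed by 0.04 ± 0.08 and did not pass. The comparison of 48 h with WT mock, both on slide 1 and also added after seeing the data, differs in genotype as well. It gave 17 cytosolic genes higher and 1 lower and 8 mitochondrial genes higher and 3 lower (27.5% and 36.3% of all entries), with Aars at 2.30, Nars at 1.92, Vars at 1.81, Qars at -1.18 and Pars2 at -1.24. The 8 include Mars2, which was not well above background on the WT mock arrays. The calls of Gars and Hars2 there were lost without either 48 h array or WT mock replicate 1, those of Lars2 and Rars2 without 48 h replicate 2 or WT mock replicate 2, and that of Aars2 without 48 h replicate 2.

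**Figure D4:**
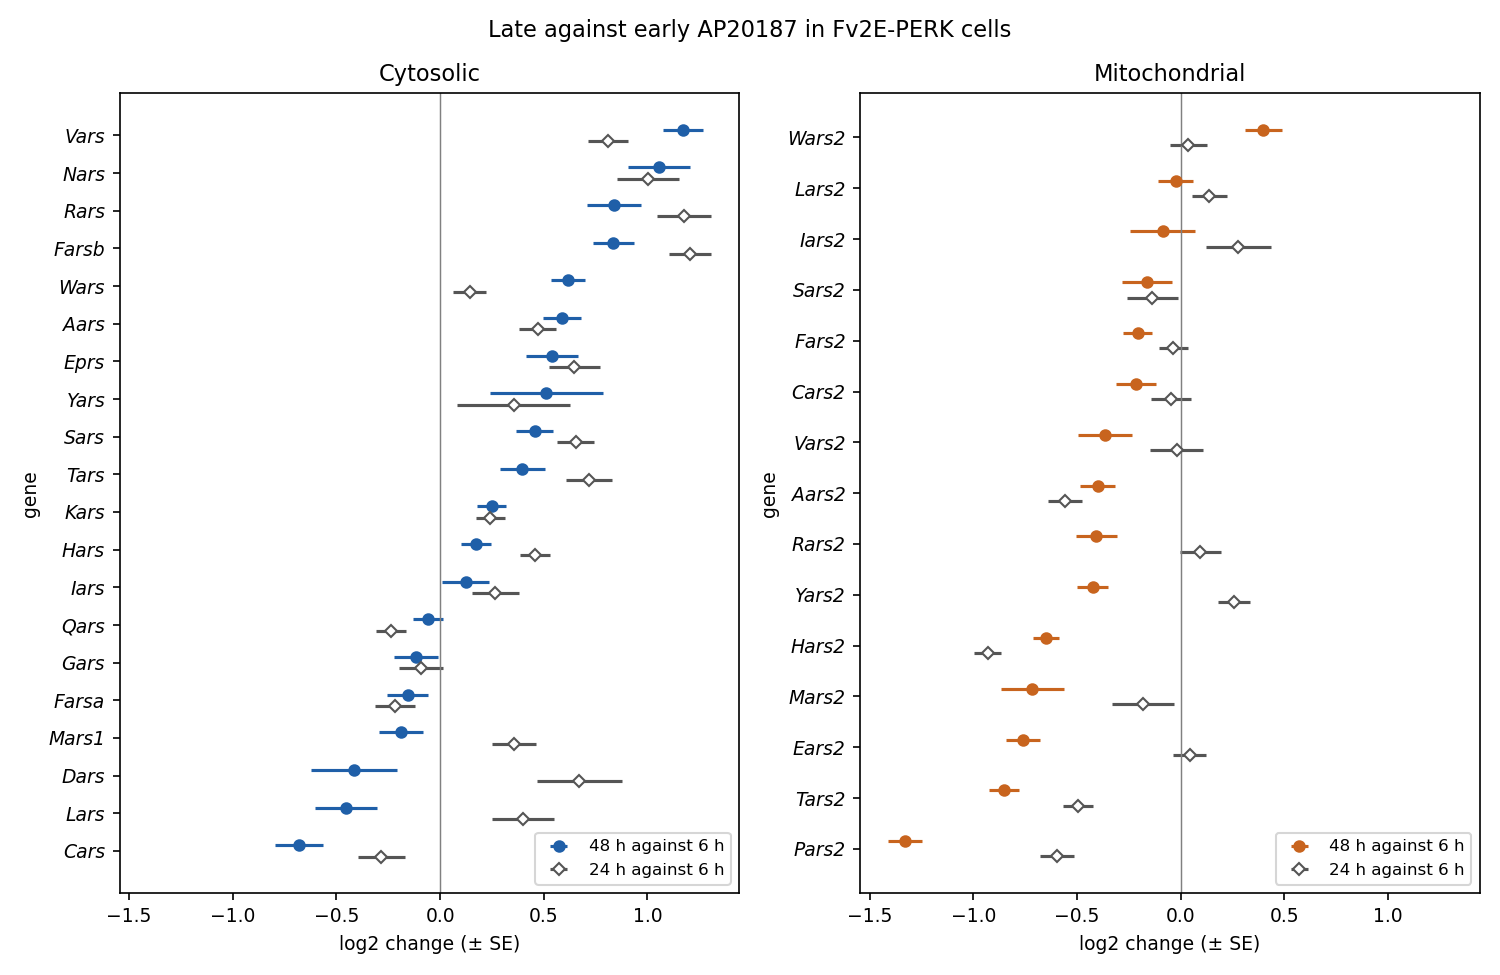
Log2 change ± SE of each tested synthetase gene at 48 h against 6 h (on different slides) and at 24 h against 6 h (both on slide 2), with n = 2 arrays per time. Each gene is shown by its brightest probe. Vars, Nars, Rars and Farsb lie farthest to the higher side in both comparisons, and Pars2, Tars2 and Hars2 on the lower side in both.

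The mean over the 20 cytosolic genes minus that over the 15 tested mitochondrial genes gives 1 number per array, to be compared between arrays only. It was 2.50, 2.52 and 2.60 with palmitate, against 2.27 to 2.36 with oleate and 2.28 to 2.30 in untreated cells. In the PERK experiment it was 2.32 and 2.25 in mock cells, 2.44 and 2.41 after 6 h, 2.63 and 2.68 after 12 h, 3.01 and 3.01 after 24 h and 3.12 and 3.11 after 48 h, and 2.26 and 2.49 in WT mock cells. Palmitate arrays did not overlap the other fatty acid arrays, and each later time of AP20187 lay above the earlier ones. The difference within an array does not depend on the scaling constant. Mars2, which was not well above background on the mock arrays, is among the 15 mitochondrial genes.

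The cytosolic and mitochondrial enzymes of 15 amino acids were set side by side, with Eprs taken for both glutamate and proline, and 14 had both members tested. With palmitate against untreated cells the cytosolic change was above the mitochondrial one in 13 of 14, the exception being tryptophan (0.04 for Wars and 0.06 for Wars2). With oleate it was above in 8 of 14. With AP20187 methionine was left out as well, since Mars2 has only bounds against mock, and the cytosolic change was above in 9, 9, 11 and 12 of 13 at 6, 12, 24 and 48 h. Glutamate went the other way at 6, 12 and 24 h (0.79, 1.28 and 1.44 for Eprs and 1.94, 1.97 and 1.98 for Ears2), and serine at all 4 times. At 48 h the widest gaps were those of alanine (Aars 2.12, Aars2 -0.36), proline (Eprs 1.33, Pars2 -1.07) and isoleucine (Iars 1.80, Iars2 -0.27). Phenylalanine, whose cytosolic enzyme has 2 subunits, was not counted. At 48 h both subunits rose (Farsb 1.22, Farsa 0.65), and Fars2, at 0.10, did not pass. No test was made over pairs, since genes are not replicates.

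The cytosolic genes include 8 that encode synthetases of the multisynthetase complex (Dars, Eprs, Iars, Kars, Lars, Mars1, Qars and Rars) and 12 that encode enzymes outside it. With palmitate 5 of 8 complex genes rose and 0 fell, and 8 of 12 others rose and 1 fell, with medians of 0.40 and 0.32, where 7.41% of all entries rose and 12.6% fell. At 48 h of AP20187, 5 of 8 complex genes rose and 1 fell, and 12 of 12 others rose, with medians of 0.70 and 1.07, where 27.2% of all entries rose and 34.6% fell. Kars, Qars and Dars, the complex genes that did not pass as higher at 48 h, were also the 3 that did not with palmitate. By class of catalytic domain, 7 of 9 cytosolic class I genes and 5 of 10 class II genes rose with palmitate, and 8 of 9 and 8 of 10 at 48 h of AP20187. The falls were those of Farsa, of class II, with palmitate and Qars, of class I, at 48 h. Eprs, which carries an enzyme of each class, was left out of that count.

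The palmitate and AP20187 comparisons share no arrays. All 13 cytosolic genes that rose with palmitate also rose at 24 h and at 48 h of AP20187, which is 100% of the palmitate rises and 76.5% of the AP20187 rises at each time. At 6 h 11 of the 13 and at 12 h 12 of the 13 did so. Over all entries tested in both, 51.3% of palmitate rises also rose at 24 h and 50.6% at 48 h, and these made up 14.3 and 14.5% of the AP20187 rises. In the mitochondrial set 1 of 2 palmitate rises, that of Yars2, was shared. Across the 20 cytosolic genes the palmitate change correlated with the AP20187 change with Pearson's r of 0.68, 0.71, 0.77 and 0.74 at 6, 12, 24 and 48 h, and across the 15 mitochondrial genes with 0.17, 0.22, 0.33 and 0.32. Over all 20987 entries r was 0.12, 0.15, 0.25 and 0.30. These values are across genes, which share arrays and are not independent replicates. The mitochondrial genes include Mars2, which has only bounds against mock. Nars, Yars, Tars and Iars were among the 5 cytosolic genes with the largest change both with palmitate and at 24 h of AP20187. Wars and Kars were near 0 with palmitate, and Farsa, lower with palmitate, rose with AP20187.

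**Figure D5:**
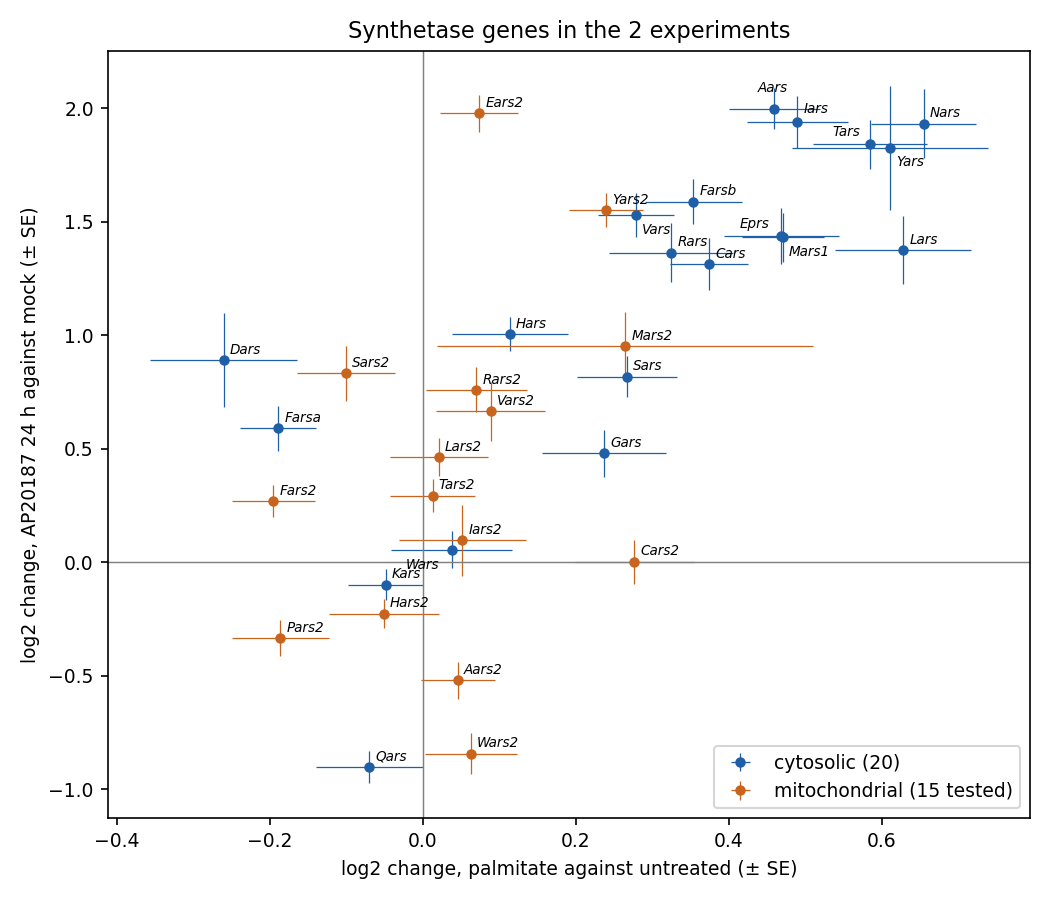
Log2 change ± SE with palmitate against untreated cells (horizontal, n = 3 each) and at 24 h of AP20187 against mock (vertical, n = 2 each) for each tested synthetase gene, by compartment. Across the 20 cytosolic genes r was 0.77 and across the 15 mitochondrial genes 0.33. Mars2, which was not well above background on the mock arrays, is included.

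Other genes of the ISR serve as landmarks for both treatments. Of 14, 13 rose with palmitate and 0 fell, and 0 rose and 1 fell (Cth, an enzyme of cysteine synthesis, -0.70) with oleate, a fall that did not pass on the spike-in scale. With AP20187 all 14 rose at 6, 12 and 24 h and 13 at 48 h. Over all entries 24.9, 27.1, 27 and 27.2% rose at 6, 12, 24 and 48 h. With palmitate 7.41% of all entries rose and 12.6% fell, and with oleate 0.837% passed in either direction. Trib3, a pseudokinase and target of ATF4, changed by 1.40 ± 0.08 with palmitate and by 3.28 ± 0.12 at 48 h of AP20187, and Ddit3, which encodes the transcription factor CHOP, by 1.00 ± 0.07 and 1.62 ± 0.08. Atf4 itself rose by 0.62 ± 0.08 with palmitate and stood at 0.26 ± 0.12 at 48 h of AP20187, which did not pass (limma's adjusted p = 0.0831).

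Of 14 genes that work beside the synthetases (scaffolds, editing enzymes, the amidotransferase, the formyltransferase, tRNA export and selenocysteine synthesis), 2 rose and 1 fell with palmitate (7.41% and 12.6% of all entries), and 2 rose and 4 fell at 48 h of AP20187 (27.2% and 34.6% of all entries). Xpot, the exporter of tRNA from the nucleus, rose with both, by 0.90 ± 0.06 and 1.27 ± 0.14. Qrsl1, a subunit of the mitochondrial glutamyl-tRNA amidotransferase, rose by 0.21 ± 0.05 and 0.56 ± 0.09. The complex's scaffold genes Aimp1 and Aimp2 stood at 0.17 and -0.12 with palmitate and 0.15 and 0.11 after 48 h, and none of these passed. At earlier times of AP20187 Aimp1 rose at 12 and 24 h (0.39 and 0.57) and Aimp2 fell at 12 h (-0.36). Eef1e1, also a scaffold gene, rose at 6, 12 and 24 h (0.75, 0.78 and 0.92) and stood at 0.08 at 48 h. Aarsd1, an editing protein for alanyl-tRNA (-0.87), Pstk, which phosphorylates seryl-tRNA for selenocysteine (-0.79), Dtd1, which removes D-amino acids from tRNA (-0.57), and Mtfmt, the mitochondrial formyltransferase (-0.56), were lower at 48 h, and on the spike-in scale these falls did not pass (-0.32, -0.24, -0.03 and -0.01). Of 9 elongation factor genes, 0 rose and 1 fell with palmitate (Eef1d, -0.19, or -0.02 and not passing on the spike-in scale), and 2 rose (Gfm2 and Tufm, both mitochondrial) and 5 fell at 48 h. Those 5 were Eef1a1 (-0.65), Eef2 (-0.57), Eef1b2 (-0.54), Eef1d (-0.43) and Eef1g (-0.42), all cytosolic. With quantile normalization none of these 5 falls passed (values of -0.10 for Eef1a1, -0.01 for Eef2, -0.06 for Eef1b2, -0.07 for Eef1d and -0.07 for Eef1g), and on the spike-in scale none passed and those of Eef1b2, Eef1d and Eef1g turned to 0.01, 0.12 and 0.13. Quantile normalization left the synthetase counts at 48 h near those above, with 17 cytosolic genes higher and 1 lower and 6 mitochondrial genes higher and 3 lower.

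There were 9 synthetase genes with a further probe, and the brightest was used above. The dimmer Aars probe gave 0.82 with palmitate and 3.86 at 48 h of AP20187, both of which passed, and the dimmer Farsa probe fell with palmitate (-0.34) and rose at 48 h (1.12). For other genes the probes did not give the same picture. The dimmer Tars2 probe was higher than mock at 48 h (0.51), where the brighter one stood at -0.06. The dimmer Vars2 probe was also higher than mock at 48 h (0.53), where the brighter one (0.32) did not pass. The dimmer Iars2 probe was lower than mock at 48 h (-0.96), where the brighter one (-0.27) did not pass. The dimmer Cars2 probe fell at 6, 12 and 24 h (-0.51, -0.73 and -0.79), where the brighter one did not pass, and stood at -0.07 with palmitate. The dimmer Wars2 probe fell at 48 h against 6 h (-0.75), where the brighter one rose. The dimmer Wars probe rose by 0.27 at 6 h, 0.65 at 24 h and 1.63 at 48 h, against -0.09, 0.05 and 0.53 for the brighter, of which the last passed.

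Fv2E-PERK mock cells differed from WT mock cells in few synthetases. Of 20 cytosolic genes 0 rose and 1 fell, and of 15 mitochondrial genes 2 were higher and 1 lower, where 9.23% of all entries were higher and 10.8% lower. Qars (-0.45 ± 0.07, limma's adjusted p = 0.00382) and Wars2 (-0.47 ± 0.09, adjusted p = 0.00908) were lower in the Fv2E-PERK mock cells. The other Wars2 probe stood at -0.19 in this comparison and did not pass. On the spike-in scale the same differences were -0.36 and -0.38 and did not pass. Yars2 was higher by 0.27 ± 0.08, a call that 9 of 12 refits without 1 array lost. Mars2 was also called higher, but it was not well above background in either group and no fold is given. Slide and genotype cannot be told apart in this comparison.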

How the data were processed

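RNA from 21 samples of MIN6m9 cells was labelled with Cy3 and hybridised to one-colour Agilent arrays, per the labels. Per the file headers and the submitters' processing notes, Agilent Feature Extraction 10.7.1.1 gave the authors' spot intensity values, with background subtraction and no scaling between arrays. The authors also deposited a series matrix of log2 values whose making the sources used here do not state. Compared with the scanner files, the matrix is log2 of the processed signal minus a constant per array and a baseline per probe. In the PERK experiment the constant is the 75th percentile within 0.004, while in the fatty acid experiment it differs by up to 0.546, and 10480 to 17661 probes per array are blank. What the baseline is and why the constants differ is unknown. Its column medians for palmitate replicates 1 to 3 are -0.27, -0.23 and -0.26. Oleate has 0.35, -0.13 and -0.18, and untreated cells have 0.26, 0.01 and -0.26. The AP20187 groups have -0.25 and -0.12 (6 h), -0.28 and -0.20 (12 h), -0.32 and -0.14 (24 h) and -0.20 and -0.18 (48 h). Fv2E-PERK mock has 0.19 and 0.33, and WT mock 0.12 and 0.09.

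Control spots (3671) and outlier spots were left out, 0 spots were saturated, and spots of each of 55681 probes were averaged. Probes were named through RefSeq's table for GRCm38.p6, which named 26582. The brightest probe stood for a gene, which left 37208 entries. The log2 processed signal minus that of the array's 75th percentile was used. This percentile lay at 335.8 to 459.1 in the fatty acid and 380.5 to 823.3 in the PERK experiment, over a background of 18 to 19 and 22 to 26. An entry was tested where every array of some group showed it well above background, as 49.8 to 53.5% and 46.8 to 56.9% of probes per array were. Each experiment was fitted with limma 3.58.1 in R 4.3.3 (lmFit and eBayes, 1 coefficient per group), with Benjamini-Hochberg adjustment over all entries tested. The fit was tested on simulated data for palmitate against untreated cells and 6 h of AP20187 against mock. A simulated log2 change of 0.5 was recovered in 48 and 25% of cases, and one of 1 in 85 and 77%. False calls were 10 and 8. A gene that did not pass may therefore still have changed by such an amount.

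Values on every array are given for the cytosolic genes called in both palmitate and 48 h of AP20187 (the 8 with the largest palmitate change), genes called lower, mitochondrial genes called in either (up to 4 each), and the cytosolic gene with the smallest change in each. Vars, Tars2 and the 12 and 24 h arrays of Dars were given in full after their values were seen. Members and gene lists were chosen with earlier results of these data known, and 1 gene of the lists is not reported here. Alternatives were normexp with quantile normalization, quantile normalization, scaling on spiked-in probes, the series matrix, no filter or a stricter one on dim probes, the mean over probes, a fold of at least 1.5, limma's trend with robust fit, replicate and slide blocks, and leaving out arrays. Deviations of same-numbered replicates from their group means correlated by -0.03 to 0.04 in the fatty acid and -0.01 to 0.13 in the PERK experiment. In the PERK experiment 28 of 30 values were above 0 (median 0.06), and replicates 1 and 2 lay in array rows 1 and 2. With 2 arrays a group the deviations mirror each other, so each value for replicates 1 recurs for replicates 2. The 30 values are therefore not separate observations. The labels give the numbers no meaning and not every correlation passed 0.1, so the replicates were not paired. The title, which gave the replicate number, disagrees with the source name for 1 WT mock array.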

Additional observations from a re-analysis of the deposited data

Results flagged for a closer look

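The difference between 48 h and 6 h of AP20187 passed limma's test for 23 of 35 synthetase genes and for 14220 of all 23386 entries. It is a tested difference between time points under the same treatment and mock. The values are log2 changes at 48 h against 6 h. Cytosolic genes that were higher at 48 h were Vars (1.17), Nars (1.05), Rars (0.84), Farsb (0.84), Wars (0.62), Aars (0.59), Eprs (0.54), Sars (0.46), Tars (0.40) and Kars (0.25), and those that were lower were Cars (-0.68) and Lars (-0.45). Wars2 (0.40) was the mitochondrial gene that was higher. The mitochondrial genes that were lower were Pars2 (-1.33), Tars2 (-0.85), Ears2 (-0.76), Mars2 (-0.72), Hars2 (-0.65), Yars2 (-0.43), Rars2 (-0.41), Aars2 (-0.40), Vars2 (-0.36) and Fars2 (-0.21). The 48 h arrays lay on slide 1 and the 6 h arrays on slide 2, so time and slide cannot be told apart in these values. At 24 h against 6 h, within slide 2, Vars, Nars, Rars and Farsb were also higher and Pars2, Tars2, Hars2 and Aars2 also lower, while Ears2 (0.04) did not pass. On the spike-in scale 10 synthetase genes passed at 24 h against 6 h, all of them cytosolic and higher, where 4083 of all 23386 entries passed. There Pars2, Tars2, Hars2 and Aars2 still stood below 6 h but did not pass. The other Wars2 probe was lower at 48 h against 6 h (-0.75), and the other Tars2 probe was lower by less than the brighter one (-0.26). No group had 4 or more arrays, so no array was tested for standing apart from its group.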

How the results depend on the processing

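Of 35 tested synthetases, the count called, in either direction, was 17 with palmitate against untreated cells, 0 with oleate, 13 with palmitate against oleate, 28, 30, 31 and 26 at 6, 12, 24 and 48 h of AP20187 against mock, 23 at 48 h against 6 h, 4 for Fv2E-PERK mock against WT mock, 18 at 24 h against 6 h and 29 at 48 h against WT mock. Over all entries the counts in the same order were 4267, 178 and 2927 of 21279 with the fatty acids. With PERK they were 15168, 15822, 15759, 14455, 14220, 4678, 9189 and 14929 of 23386. For the synthetases, scaling on spiked-in probes gave 9 with palmitate, 8 with palmitate against oleate, 10 at 48 h against 6 h, 10 at 24 h against 6 h and 1 between the mock groups. Over all entries that scaling called 1045, 1024, 8082, 4083 and 1350 in the same order. The series matrix gave 0 with palmitate and 0 against oleate, where it called 549 and 409 of all entries. No filter gave 11 with palmitate. Leaving out palmitate replicates 1 and 2 together gave 7 with palmitate and 5 against oleate, where the 1 array left is alone on slide 2 and is assumed to vary like the other groups. A fold of at least 1.5 gave 3 with palmitate, 2 against oleate, 12 at 48 h against 6 h, 10 at 24 h against 6 h and 1 between the mock groups. Leaving out 1 array at a time gave 13 to 15 with palmitate, 0 with oleate, 10 to 15 against oleate, 25 to 29, 28 to 31, 30 to 31 and 23 to 28 at the 4 times, 18 to 25 at 48 h against 6 h, 3 to 5 between the mock groups, 13 to 21 at 24 h against 6 h and 24 to 31 at 48 h against WT mock. With the replicate number as a block, which the labels and the data do not show to pair samples, the counts were 13 with palmitate, 0 with oleate, 12 against oleate, 28, 30, 31 and 26 at the 4 times, 22 at 48 h against 6 h, 3 between the mock groups, 18 at 24 h against 6 h and 29 at 48 h against WT mock. With slide as a block, palmitate gave 13. Over all entries, refits without 1 array called 2673 to 3713 with palmitate, 22 to 139 with oleate and 1398 to 3155 against oleate. At the 4 times they called 12893 to 15541, 13826 to 16155, 13777 to 15835 and 11937 to 14901. They called 11436 to 14641 at 48 h and 6125 to 9266 at 24 h, each against 6 h. Counts over all entries without a filter, with a fold of at least 1.5 and with blocks are not given here.

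On the spike-in scale the sign turned for Aars2 at 12, 24 and 48 h (0.28, 0.42, 0.18) and against WT mock (0.32), Hars2 at 24 h (0.71), Kars at 6, 12 and 24 h (0.31, 0.20, 0.84), Pars2 at 12 and 24 h (0.64, 0.60), Qars at 24 h (0.036) and against 6 h (0.05), Wars at 12 h (0.24) and Wars2 at 24 and 48 h (0.094, 0.064). With the mean over probes it turned for Cars2 at 24 h (-0.40), Pars2 at 6 h (-0.61), Tars2 at 48 h (0.22) and Wars2 at 48 h against 6 h (-0.18). It turned for Wars at 6 h (0.24) with quantile normalization and for Yars2 against oleate (-0.031) on the series matrix. The cause was not tested. Of all calls, the share that were rises was 85.8% on the spike-in scale with palmitate, against 37% as reported, 91.7% against oleate (54.4% as reported), 75% with oleate (39.9%), 72.8% between the mock groups (46.2%), 87.4% at 24 h against 6 h (52.9%) and 87.4% at 48 h against WT mock (43.1%). It was 48.2 and 49% at 6 h with normexp and with quantile normalization, 50, 50.6 and 70.1% with oleate under normexp, quantile and the series matrix, and 35.9% against oleate on the matrix. Dim probes limit Mars2 and Nars2 most.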
